A study of Mus musculus with 16 samples.

Results

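The nuclear factor I (NFI) family comprises the transcription factor genes Nfia, Nfib, Nfic and Nfix. They were taken by symbol from tables of 17655 genes, where all 4 were found, and all 4 were among the 12357 genes tested, those with a mean normalised read count of at least 10. The cells were preSC, Chga-positive neuroendocrine cells of the mouse lung in culture. Both groups were labelled null for Rb1 and Trp53 and heterozygous null for Rbl2. The empty group (8 samples) carried a lentiviral control without insert and the Wnt5a group (8 samples) a lentivirus with Wnt5a, a secreted Wnt ligand. Doxycycline (1 µg/mL, 48 hours) was given to both groups ahead of RNA extraction. How many lines or clones were used is not given in the labels.

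NFI proteins share a conserved DNA-binding domain and bind as dimers to a palindrome with arms TTGGC and GCCAA, and more weakly to a single arm. In the mouse lung, Nfib is needed for maturation of the fetal organ, and its locus is recurrently amplified in mouse small cell lung cancer, where the protein is linked to open chromatin and metastasis. Nfia is best known for the start of glial differentiation, Nfic for tooth root formation, and Nfix for the fetal programme of muscle and for neural stem cells.

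Whole read counts were recovered from the tables, with 7526676 to 8859862 reads per sample. Within a group, samples 1 to 4 differed by little more than counting noise, as did samples 5 to 8, so each set was averaged into 1 library (A and B), leaving 2 libraries per group. The labels name no separate cultures, so p-values measure only the spread between these libraries, which may be technical. As a check of the labels, Wnt5a was at 144 and 99.8 (empty A and B) against 1049 and 1509 (Wnt5a A and B). Reads were also listed for the genes labelled null, with Rb1 at 3169 to 3229 and Trp53 at 64.8 to 97.3 over the 4 libraries. With 1 value per gene, the files do not show which exons these reads came from, so the null alleles were not checked. The 7 neuroendocrine markers were abundant in every library, with sums of 47176 to 51633, and none passed the limma test between groups. On average 6 of the 7 were lower with Wnt5a. Calca was lower in every Wnt5a sample than in any empty sample, as for 5.95% of all tested genes. Its log2 difference was -0.31 (limma adjusted p = 0.154, DESeq2 adjusted p = 0.043, where DESeq2 called 4.35% of all tested genes). Fibroblast markers, 4 of 5 listed, summed to 604 and 353 (empty) against 244 and 248 (Wnt5a), nearly all of it Dcn. Col1a1 was at 2.21 and 3.56 (empty) against 0.235 and 0.704 (Wnt5a), and Pdgfra at 4.69 and 9.41 against 2.82 and 1.18. Col1a2 was at 0 in both empty libraries and at 0.235 and 0.233 with Wnt5a. Col1a1, Pdgfra and Col1a2 were too low to be tested. Dcn was also lower in every Wnt5a sample than in any empty sample (log2 difference -0.89, limma adjusted p = 0.131, DESeq2 adjusted p = 0.00014). Leukocyte, endothelial and lung epithelial markers, 12 of 14 listed, summed to at most 17.1, 5.79 and 52.7. Whether these markers bear on the values below was not tested.

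The letters that NFI proteins bind can be shown in RefSeq promoters (GRCm38.p6), matched for Nfia, Nfic and Nfix. Each window of 300 bases runs from 250 bases before to 50 after a transcript start. The full palindrome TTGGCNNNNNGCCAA, searched on both strands, was in 0 of the 6 windows of the family and in 12 of all 32851 windows (0.0365%). The single arm TTGGC, on either strand, was in 3 of the 6, all of them among the 4 windows of Nfix, against 46.7% of all windows. TTGGCA, which contains that arm, was in 0 of the 6, against 14.1% of all windows. The stretches printed here are the 250 bases before a start, 5′ to 3′ on the gene's strand, with TTGGC and its reverse complement GCCAA in capitals. Nfix is the only member with TTGGC among the 3 searched, and it had 4 of the 6 windows. Nfib had no matched promoter and was not searched. Cntn2 and Ezh2 are described NFI targets whose expression is given further on, the first with the most negative difference among the targets and the second holding TTGGCA.
Nfix, chr8:84775829-84776078, minus strand: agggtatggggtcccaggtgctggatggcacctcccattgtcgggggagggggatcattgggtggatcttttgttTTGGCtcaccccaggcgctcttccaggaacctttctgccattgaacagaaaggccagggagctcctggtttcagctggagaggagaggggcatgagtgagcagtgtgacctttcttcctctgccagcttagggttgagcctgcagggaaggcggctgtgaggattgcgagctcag
Cntn2, chr1:132542941-132543190, minus strand: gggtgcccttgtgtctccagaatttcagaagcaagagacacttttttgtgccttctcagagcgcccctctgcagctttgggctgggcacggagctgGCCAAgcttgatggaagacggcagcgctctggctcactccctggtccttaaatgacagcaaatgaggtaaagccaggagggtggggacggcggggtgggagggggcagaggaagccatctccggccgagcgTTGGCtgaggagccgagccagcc
Ezh2, chr6:47595031-47595280, minus strand: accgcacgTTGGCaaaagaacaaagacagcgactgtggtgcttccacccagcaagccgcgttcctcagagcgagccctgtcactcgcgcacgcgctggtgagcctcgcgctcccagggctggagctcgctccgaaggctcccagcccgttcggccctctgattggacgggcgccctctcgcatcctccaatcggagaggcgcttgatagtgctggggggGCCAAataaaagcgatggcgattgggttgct
A match is a run of letters and does not show binding.

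All 4 genes were expressed in preSC, at very different levels. Levels of different genes are compared per kilobase of the longest GENCODE M21 transcript. Nfic was the most abundant, at 273.6 ± 6.66 normalised reads per kilobase (SD, n = 4 libraries), above 81.2% of the tested genes with a known length. Nfib followed at 112.6 ± 15.2, above 55.6% of those genes and near their median of 96.1. Nfix was at 68.1 ± 8.67, above 38.8%, and Nfia at 20.2 ± 3.52, above 14.7%. The order Nfic, Nfib, Nfix, Nfia held in each of the 4 libraries, and the library ranges of neighbours in this order did not overlap. The place of Nfib among all genes depends on the length used, since it was above 49.0% of genes per kilobase of merged exons and 77.3% per kilobase of longest coding sequence. Cells with a known copy number of its locus were not analysed here. The order of Nfib and Nfix does so too. Per kilobase of merged exons, which are long for Nfib (14957 bases against 9116 for its longest transcript), the pair was level in empty library B, at 59.9 for Nfib and 60.2 for Nfix.

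Summed per kilobase of longest transcript, the family stood at 468 and 480.2 (empty A and B) against 486 and 464 (Wnt5a A and B), so the groups overlapped. Nfic held 54.6% to 58.9% of that sum. The share of Nfib was 22.5% and 20.5% with the empty vector against 27.5% and 24.4% with Wnt5a. The count of Nfib was itself higher in both Wnt5a libraries, as for 22.7% of all tested genes, so its share is not a separate result. Nfix held 13.3% to 16.8% and Nfia 3.48% to 5.26%, both with overlapping groups. These are shares of normalised reads per kilobase, not of protein.

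**Figure D1:**
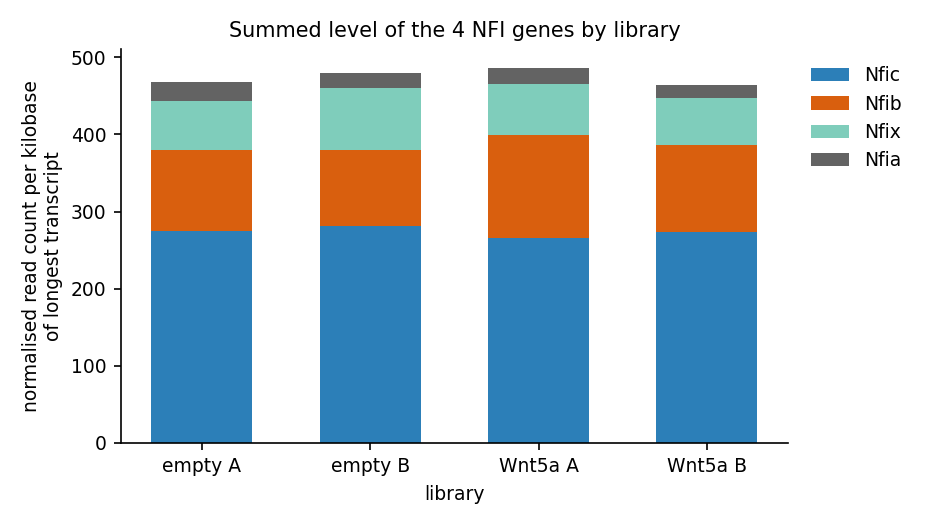
Summed level of the 4 NFI genes in each library, as normalised reads per kilobase of the longest transcript (y axis, starting at 0), stacked by gene. The totals lie between 464 and 486, with Nfic the largest part of each bar and Nfia the smallest.

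Between the groups, 0 of the 4 genes passed the threshold (limma adjusted p under 0.05), against 2.06% of all 12357 genes tested. At an unadjusted p under 0.05 it was 1 gene, Nfib, where 16.1% of all tested genes had such a p. On the recovered reads, edgeR and DESeq2 also called 0 of the 4, against 1.99% and 4.35% of all genes. Nfib was higher and the other 3 were lower with Wnt5a on average. In these bulk samples, fewer cells expressing a gene and less RNA per cell cannot be told apart.

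Nfib had normalised read counts of 961 and 897 in empty libraries A and B, against 1217 and 1032 in their Wnt5a counterparts. Both Wnt5a libraries lay above both empty ones, as for 22.7% of all tested genes. Across single samples the empty group ran from 879 over a median of 930.1 to 986, and the Wnt5a group from 986 over 1122 to 1251, so the ranges overlapped only at 986. The means were 929 ± 45.6 and 1125 ± 131 (SD, n = 2 per group). This gave a log2 difference of 0.27 (SE 0.10; limma adjusted p = 0.238), with a 95% interval of 0.04 to 0.51, or 1.03-fold to 1.42-fold, not adjusted for the number of genes. Set by set, it was 0.34 for library A and 0.20 for library B. An exact permutation test over libraries (two-sided) gave p = 0.333, and 2 against 2 cannot go lower. Nfib was counted with 3485 to 5183 reads per library, and 17.8% of all tested genes differed by more in either direction.

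Nfia was at 234 and 184 with the empty vector (A and B) against 198 and 154 with Wnt5a. Library A was above library B in both groups, by 0.35 on the log2 scale with the empty vector and 0.36 with Wnt5a. The groups overlapped, since empty library B lay below Wnt5a library A. Single samples ran from 164 over a median of 212 to 248 (empty) and from 122 over 183 to 206 (Wnt5a). The log2 difference between groups was -0.25 (SE 0.17; limma adjusted p = 0.553), with a 95% interval of -0.65 to 0.14. It was similar in both sets, at -0.24 (A) and -0.26 (B), and smaller than the gap between the sets. With 655 to 850 reads per library, Nfia was the least deeply counted member.

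Nfic, the most abundant member, was at 1710.0 and 1757 with the empty vector against 1656 and 1703 with Wnt5a. Both Wnt5a libraries lay below both empty ones, as for 21.5% of all tested genes. Single samples overlapped, from 1671 over a median of 1742 to 1785 (empty) and from 1623 over 1674 to 1744 (Wnt5a). In log2 terms Nfic differed by -0.05 (SE 0.07; limma adjusted p = 0.836), with a 95% interval of -0.21 to 0.12. It was -0.05 in each library set, and 74.8% of the tested genes differed by more.

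Nfix was at 349 and 442 with the empty vector against 364 and 337 with Wnt5a. Empty library B stood above the other 3, and its lowest sample, at 429, was above the highest sample of the others, at 369.9. Medians over samples were 399 (empty) and 357 (Wnt5a). The log2 difference between groups was -0.17 (SE 0.13; limma adjusted p = 0.619), with a 95% interval of -0.46 to 0.13. The library sets went in opposite directions, at 0.06 (A) and -0.39 (B), and without empty library B the difference was 0.0048. No direction for Nfix can be read from these libraries.

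**Figure D2:**
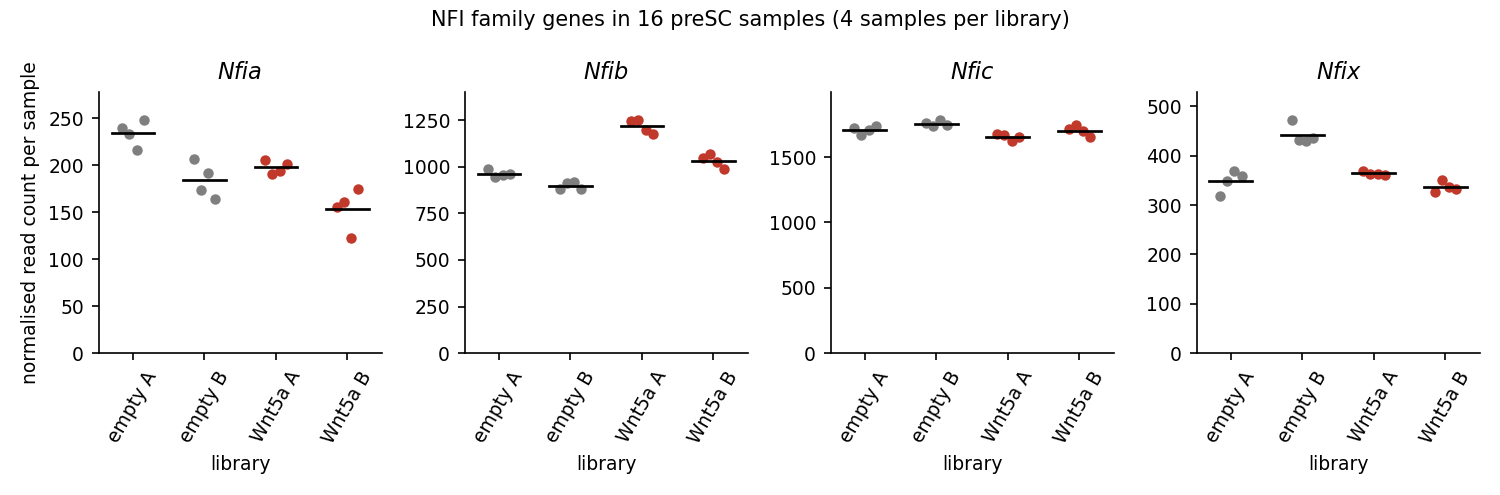
Normalised read count (y axis, starting at 0) of each NFI gene in the 16 samples. Points are single samples, 4 per library, and lines are library means; grey is empty and red is Wnt5a. Nfib is higher in both Wnt5a libraries, at 1217 and 1032, than in the empty ones, at 961 and 897, and Nfix is highest in empty library B at 442.

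**Figure D3:**
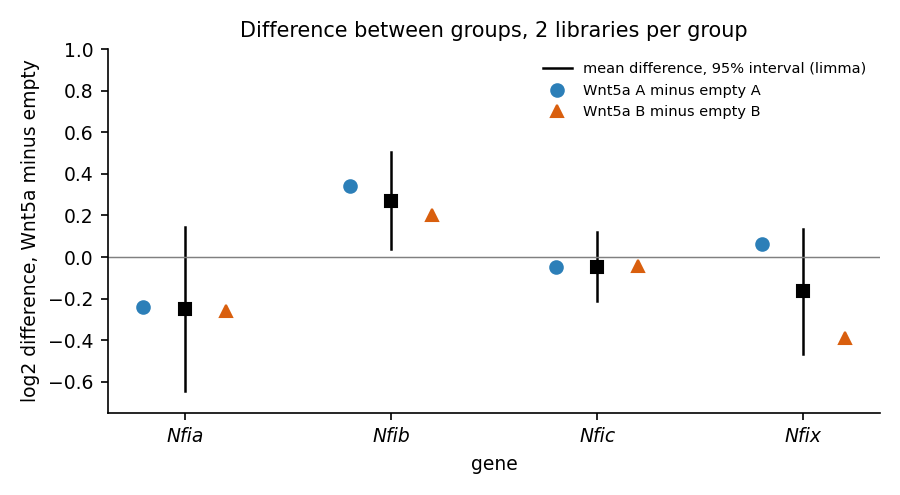
Log2 difference, Wnt5a minus empty, for each NFI gene. Squares with bars are the limma estimate and its 95% interval, circles the A libraries and triangles the B libraries. Of the 4 intervals only that of Nfib, 0.04 to 0.51, leaves out 0, and the A and B libraries have opposite signs for Nfix only.

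Few exonic bases of the members are shared with other genes in GENCODE M21. Genes on the opposite strand share 4 bases with Nfia, 0 with Nfib and 72 with Nfic. Nfix shares 137 bases with G430095P16Rik and 4 with Lyl1, which was at a mean of 0.202. Whether reads were counted by strand is not given in the sources used here.

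The genes whose values ran most like each member over the 4 libraries were sought among 9699 tested genes with a mean count of at least 100. Likeness was the root mean square distance of log2 values, each gene centred on its own mean. Closest to Nfib were Trib2, Pdzd8 and Zscan20, at distances of 0.016, 0.018 and 0.019, and 47 genes lay within 0.05. Trib2, which encodes a pseudokinase, was at 379 and 361 (empty) against 484 and 403 (Wnt5a). Closest to Nfia were Akap9, Dgkh and Pcdhb15, at 0.012 to 0.021, and 54 genes lay within 0.05. Akap9, which encodes an anchor for protein kinase A at the centrosome and Golgi, was at 1795 and 1390 (empty) against 1518 and 1188 (Wnt5a). Calm3 and Ist1 were among the closest to Nfic, at 0.0028 and 0.0044, and 1604 genes lay within 0.05 of this nearly flat gene. Nfix was matched by Foxd1, Cdk18 and Gorab, at 0.0078 to 0.031, and 9 genes lay within 0.05. Foxd1, a forkhead transcription factor gene, was at 540 and 688 (empty) against 567 and 529 (Wnt5a), with the same high empty library B. Between members the distance was 0.13 for Nfic and Nfix and 0.19 to 0.28 for the other pairs.

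Genes beside each member were examined because amplification of a locus can carry neighbouring genes with it. A copy number shared by both groups cancels in a difference between them, so amplification itself was not tested. The 5 nearest tested genes on each side of each member, in RefSeq order, gave 40 genes. They were taken by order with no limit on distance, so they need not be close. Promoter windows of Rasef and Snapc3, the outermost around Nfib, began at bases 73790553 and 83417474 of chromosome 4. Of the 40 genes, 1 passed the limma threshold, near the 2.06% of all tested genes, and 25 were higher and 15 lower with Wnt5a. In edgeR 1 and in DESeq2 2 of the 40 passed, against 1.99% and 4.35% of all tested genes. An unadjusted limma p under 0.05 was found for 6, against 16.1% of all tested genes. The median log2 difference of the 40 was 0.02, against 0.0026 for all tested genes. Around Nfib 7 of 10 were higher (median 0.08), around Nfia 8 (0.13), around Nfix 6 (0.02) and around Nfic 4 (-0.03). The median tested gene on chromosome 4, which carries both Nfib and Nfia, differed by 0.00091.

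The neighbour that passed in limma was Ptprd, a receptor tyrosine phosphatase gene beside Nfib. It rose from 2 and 5 reads in the empty libraries to 101 and 105 reads with Wnt5a. Its normalised read count was 0.914 ± 0.514 in the empty group and 24.2 ± 0.621 in the Wnt5a group (SD, n = 2 each; limma adjusted p = 0.0029). It reached the minimum mean of 10 for testing only through the Wnt5a libraries, so among tested genes it had to differ. Averaged over all 4 libraries of both groups, Ptprd was a very low gene, with 1.27 normalised reads per kilobase against 112.6 for Nfib. Its level per kilobase in the Wnt5a libraries alone was not computed. Frem1, an extracellular matrix gene on the other side of Nfib, was at 27.6 and 56.0 (empty) against 15.7 and 16.4 (Wnt5a). Its log2 difference was -1.24 (limma adjusted p = 0.127, DESeq2 adjusted p = 0.0096), and in fits without 1 library it ran from -1.74 to -0.74. Ttc39b, next to Frem1, was at 1015 ± 32.3 and 886 ± 19.2 (log2 difference -0.20; limma adjusted p = 0.247). The nearest tested gene on each side of Nfib was named after its values were seen. Lurap1l was at 213 and 235 (empty) against 274 and 256 (Wnt5a), with a limma adjusted p of 0.293. Zdhhc21, a palmitoyltransferase gene, was at 915 and 843 against 928 in both Wnt5a libraries, with a limma adjusted p of 0.714. Apart from Ptprd, the genes around Nfib ranged from -1.24 (Frem1) to 0.24 (Lurap1l) in log2 difference, against 0.27 for Nfib itself.

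Beside Nfia, Usp1, a deubiquitinase gene of DNA repair, was at 1426 ± 118 in the empty group and 1676 ± 28.9 with Wnt5a (log2 difference 0.23; limma adjusted p = 0.227). Hook1, whose protein links cargo to microtubule motors, was at 1462 ± 47.9 and 1663 ± 61.1 (log2 difference 0.19; limma adjusted p = 0.284). Both genes were higher in every Wnt5a sample than in any empty sample, which held for 6.45% of all tested genes, whereas Nfia between them had overlapping samples and a negative difference. Jun, an AP-1 subunit gene, was at 2311 ± 157 and 2102 ± 165. Beside Nfix, the calcium channel gene Cacna1a was at 1206 ± 229 and 1019 ± 78.5, and the chaperone gene Calr at 5261 ± 687 and 5411 ± 635. Aes, a Groucho-type corepressor gene beside Nfic, was at 5040.4 ± 70.8 and 4991 ± 162. None of these 4 passed (limma adjusted p = 0.486 to 0.957).

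**Figure D4:**
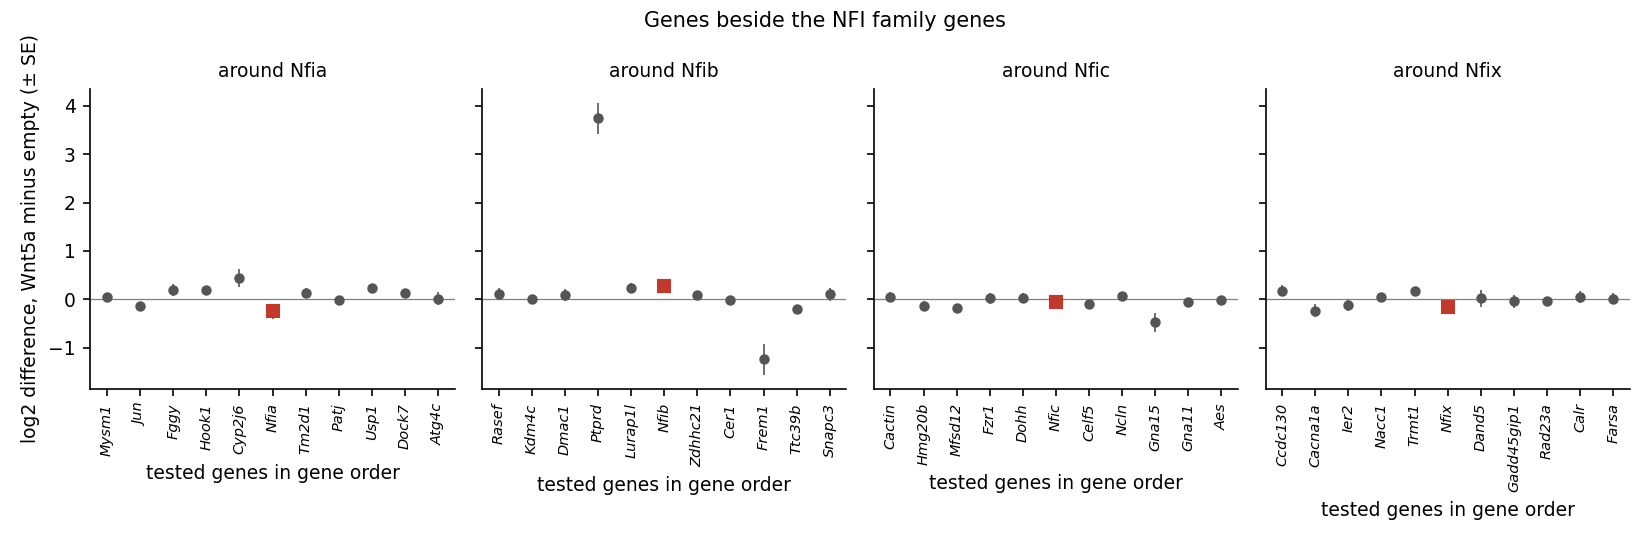
Log2 difference, Wnt5a minus empty, with SE (y axis) for the 5 tested genes on each side of each NFI gene in gene order (x axis). The NFI gene is the red square. Ptprd stands far above the rest at 3.74, and Frem1 lies lowest at -1.24.

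Factors described as working with or against NFI proteins were a list of 9 genes, 7 of them listed in the tables and 5 tested. Of these, 0 passed the threshold in limma, edgeR or DESeq2, and 0 had an unadjusted limma p under 0.05. Their median log2 difference was -0.09, against 0.0026 for all tested genes. The forkhead genes Foxa1 and Foxa2, whose proteins open chromatin in endodermal organs, and the lung lineage gene Nkx2-1 were each above at least 97.0% of tested genes per kilobase, far above the NFI genes. Foxa1 had normalised read counts of 4094 and 3775 (empty) against 4067 and 3896 (Wnt5a). For Foxa2 they were 2436 and 2241 against 2355 and 2055, and for Nkx2-1 2774 and 2719 against 3159 and 2877. The limma adjusted p was 0.951, 0.749 and 0.496 for these 3 genes. Ski, a corepressor gene, was at 579 and 513 against 491 and 459 (log2 difference -0.20; limma adjusted p = 0.362). Sox9, which acts with Nfia in glial precursors, was at no more than 0.940 in any library.

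Genes described as NFI targets in brain, muscle or other tissues were a list of 18, of which 15 were listed and 11 tested. In limma and edgeR 0 passed the threshold, while 3 had an unadjusted limma p under 0.05 (16.1% of all tested genes had) and DESeq2 called 1, Cntn2 (4.35% of all). Of the 11, 4 were higher and 7 lower with Wnt5a, with a median log2 difference of -0.08, against 0.0026 for all tested genes. The list did not separate activated from repressed targets, so these values give no direction of NFI activity. The astrocyte gene Gfap, a classical NFI target, was at 0 in 3 libraries and at 0.235 in Wnt5a library B. Fabp7, a fatty acid binding protein gene of glial precursors, was at no more than 3.31.

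Cntn2, which encodes an axonal adhesion molecule, was at 260.3 and 186 (empty) against 143 and 103 (Wnt5a). Every Wnt5a sample lay below every empty sample, as for 5.95% of all tested genes. In log2 terms Cntn2 differed by -0.86 (SE 0.21; limma adjusted p = 0.107, DESeq2 adjusted p = 0.0010). Cntn2 is on chromosome 1, whose tested genes had a median difference of -0.17, and the share of that shift in its value was not tested. Cdkn1a, which encodes the cell cycle inhibitor p21, was at 1472 and 1440.5 against 1234 and 1279 (log2 difference -0.21; limma adjusted p = 0.201), again with no overlap of samples. Apcdd1, which encodes a Wnt inhibitor, was at 190.0 and 188 against 153 and 158 (log2 difference -0.28; limma adjusted p = 0.214). Cdh2 (N-cadherin) was at 2074 ± 74.1 and 1998 ± 18.5, with a limma adjusted p of 0.808. Ezh2, the Polycomb methyltransferase gene that Nfib represses in the developing brain, was at 1237 ± 81.5 and 1245 ± 20.9, with a limma adjusted p of 0.965. The other 6 tested targets ranged from -0.18 (Efnb1) to 0.41 (Hes1, at 25.1 ± 9.80 and 32.6 ± 4.29).

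**Figure D5:**
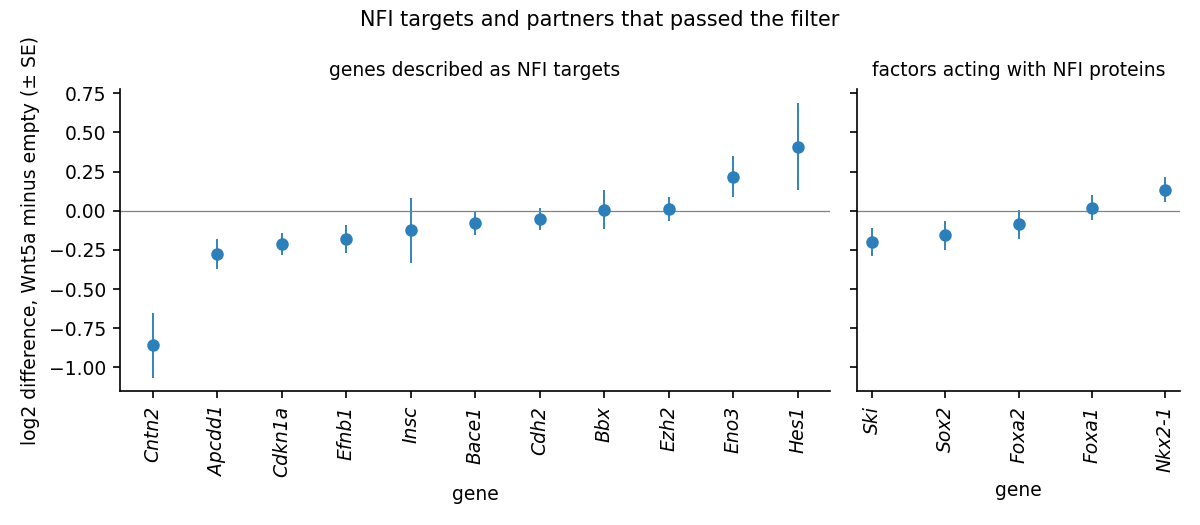
Log2 difference, Wnt5a minus empty, with SE (y axis) for the 11 tested NFI targets (left) and the 5 tested partners (right), sorted within each list. Cntn2 lies lowest at -0.86 and Hes1 highest at 0.41; none passed the limma threshold.

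Promoter windows were matched for 12 of the 18 target genes, a different set from the 11 tested. Gfap and Fabp7, among others, had a window but were not tested, and tested targets such as Apcdd1 and Hes1 had none. TTGGC was in 10 of the 13 target windows and TTGGCA in 4, against 46.7% and 14.1% of all windows. For the partners it was 5 and 1 of 8 windows, and for the neighbours 23 and 4 of 41. These counts were not tested. The printed stretches of Cntn2 and Ezh2 each hold 1 TTGGC and 1 GCCAA, beside log2 differences of -0.86 and 0.01.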

How the data were processed

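RNA of 16 samples, 8 per group, was sequenced after oligo-dT purification, per the labels' protocols. The submitters' processing notes list TopHat, Bowtie, HTSeq and DESeq2 without versions; build and annotation are not given in the sources used here. The deposited files hold 1 signal value per gene, normalized by the authors. All values (100%) were within 0.001 steps of a whole multiple of 1 step per file (0.934 to 1.11), so whole reads were recovered.

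Pairs of samples within 1 to 4 or 5 to 8 of a group had an index of dispersion of 0.987 to 1.05, the other pairs 5.23 to 5.44, which gave 4 libraries. The main test was limma 3.58.1 in R 4.3.3 (eBayes with trend) on log2(value + 1), a scale that understates changes of low genes, with Benjamini-Hochberg adjustment over 12357 genes (254 called). Alternatives were other pseudocounts, filters, scalings and replicate definitions, and edgeR 4.0.16 (246 called) and DESeq2 1.42.0 (538 called) on recovered reads. The scripts were tested on simulated data. The members and lists were chosen with earlier results of these data known. Named genes are the members, list genes called with or without the replicate number as a block, the 3 of highest mean in each list, and the 3 genes most like each member; others were named after their values were seen, and some genes these rules name are not reported here. RefSeq GRCm38.p6 gave gene order (17620 of 17655 symbols matched) and GENCODE M21 gave lengths. Protein sequences were not used here.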

Additional observations from a re-analysis of the deposited data

How the results depend on the processing

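The number of genes called moved with the definition of a replicate. Against 254 genes, all 16 samples counted separately gave 4377, the replicate block 2095, both together 5606, DESeq2 538, no filter 146, a minimum value of 50 102, and eBayes without trend 158; the cause was not tested. Fits without 1 library gave 138 to 1098 genes (493 without empty A, 1098 without empty B, 166 without Wnt5a A, 138 without Wnt5a B), where the lone library is assumed to vary like the other group. Same-numbered libraries deviated together (Pearson r 0.44, Spearman 0.53, across 12357 genes, which are not independent), but the labels state no pairing and there are only 2 pairs. With the replicate block, Nfib passed (0.27, limma adjusted p = 0.015), Nfia (adjusted p = 0.052), Nfic (0.517) and Nfix (0.326) did not, and 17.0% of all tested genes did. The block also called 3 targets (Cntn2, Cdkn1a, Apcdd1), 1 partner (Ski) and 6 neighbours (Ptprd, Frem1, Usp1, Ttc39b, Cacna1a, Hook1). Counting all samples separately called Nfib (0.27, limma adjusted p = 0.00012); with the block as well, it called Nfia (-0.25, adjusted p = 0.0035), Nfib (0.27, adjusted p = 2.26e-07) and Nfix (-0.16, adjusted p = 0.049). These fits treat repeat samples of 1 library as independent. Without 1 library, the log2 difference was 0.15 to 0.39 for Nfib, -0.43 to -0.07 for Nfia, -0.07 to -0.03 for Nfic and -0.34 to 0.0048 for Nfix, whose sign changed when empty library B was left out. With all 4 libraries the 4 genes kept their direction under each of the 12 other settings. List medians without 1 library were -0.157 to -0.0545 (targets), -0.185 to 0.0114 (partners) and 0.0097 to 0.0634 (neighbours). The partner median was 0.0180 without the filter, which adds low genes of that list, and the neighbour median 0.0051 after median centring. A minimum value of 50 left Ptprd out. Near 0, the sign of 5 named genes changed. After median centring, Ezh2 was at -0.0076 and Foxa1 at -0.0011, and after quantile normalization Aes was at 0.0065. Without 1 library, the values were -0.0556 to 0.0787 for Ezh2, -0.0404 to 0.0763 for Foxa1, -0.185 to 0.0114 for Foxa2, -0.0916 to 0.175 for Calr and -0.0476 to 0.0187 for Aes. The same fits gave -1.10 to -0.62 for Cntn2, -1.74 to -0.74 for Frem1 and -0.43 to -0.04 for Cacna1a. Levels per kilobase depend on the length, and both other lengths were chosen after seeing the data. Per kilobase of merged exons they were 68.6 for Nfib, 257 for Nfic and 50.8 for Nfix. Per kilobase of longest coding sequence they were 126 for Nfia, 600.4 for Nfib, 1234 for Nfic and 252 for Nfix, in the same order. Coding lengths of RefSeq proteins were not run.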
